A study of Mus musculus with 18 samples.

Results

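The mitochondrial ribosome has a large and a small subunit, and in mammals all of its proteins are encoded in the nucleus, made in the cytosol and imported. It translates the few messages of mitochondrial DNA, which specify core subunits of the respiratory chain, so its proteins stand upstream of oxidative phosphorylation. Osteoclasts, the multinucleated cells that resorb bone, are known to be rich in mitochondria, and they arise from macrophage precursors under M-CSF and RANKL, the cytokine that drives their differentiation. The genes described here are those whose annotated symbol begins with Mrpl or Mrps followed by a digit. The prefixes stand for the large and the small subunit, but they do not always give the place of a protein, as for Mrps18a below. These genes were read by 110 of the 25697 probes with an identifier on a mouse bead array and comprised 76 of the 16593 genes annotated there, 47 named Mrpl and 29 named Mrps.

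Transcripts were measured on 18 arrays of cultured mouse bone marrow cells, 3 arrays for each of 6 groups. The groups crossed 2 genotypes with 3 stages of culture. In ERα ΔLysM mice the floxed gene of estrogen receptor alpha (Esr1) is recombined by Cre expressed from the lysozyme M locus, which is active in myeloid cells including neutrophils and macrophages, and ERα f/f littermates carry the same floxed alleles without Cre. Both were on a C57BL/6 background and, per the study's methods, 2 to 3 months old. Bone marrow-derived macrophages (BMMs) were grown in M-CSF (30 ng/ml) without RANKL, pre-osteoclasts had received M-CSF and RANKL (30 ng/ml each) for 2 days, and mature osteoclasts for 4 days. The study's text, but not the sample labels, also gives the cells estradiol for 4 h before the arrays. The study's methods describe BMMs prepared from 3 mice, but neither source ties the 3 arrays of a group to separate mice, so the p-values measure the spread between these arrays, which may be technical. Below, a level is the background-corrected, quantile-normalized log2 intensity of a probe, a difference is between 2 such levels, and a probe passed when limma's moderated test with Benjamini-Hochberg adjustment over all 13409 probes tested gave an adjusted p under 0.05.

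The arrays of a group correlated with each other at 0.985 to 0.9937 over all probes, and the median raw intensity of an array ranged from 116 to 191. At each stage the lowest value was that of an ERα ΔLysM array (130 to 177 against 165 to 191 in ERα f/f BMMs, 116 to 186 against 131 to 181 in pre-osteoclasts, and 123 to 186 against 163 to 170 in mature osteoclasts). Both Esr1 probes were detected on 0 arrays, so the arrays give no check of the genotype labels. The stage labels could be checked. Of 14 osteoclast markers tested (Acp5, Ctsk, Calcr and others), 12 were higher in pre-osteoclasts than in BMMs and 14 were higher in mature osteoclasts, while all 8 macrophage markers tested were lower at both stages. The 9 neutrophil markers tested were also lower at both stages, and their mean level was higher in ERα ΔLysM than in ERα f/f cells, at 10.01 to 10.1 against 9.475 to 9.491 in BMMs, 8.76 to 9.372 against 8.164 to 8.865 in pre-osteoclasts and 7.502 to 7.827 against 7.23 to 7.728 in mature osteoclasts. All 9 were above 0 in that comparison in BMMs and in pre-osteoclasts, where 1 passed, and 7 in mature osteoclasts, where 0 passed (limma) and 2 had an unadjusted p under 0.05. Ly6g had no probe among those annotated, and Mmp8 was not detected often enough to be tested. None of the T cell markers was detected often enough to be tested, and of the erythroid, B cell and stromal lists 1, 2 and 2 genes were. The part of neutrophil content in the results below was not tested. With the median raw intensity of each array as a covariate, 73 member probes were higher and 2 lower in pre-osteoclasts than in BMMs, 69 higher and 3 lower in mature osteoclasts than in BMMs (30% and 25.7%, and 35% and 33.6%, of all probes), and 0 passed between genotypes at any stage.

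Of the 110 probes, 98 reading 70 genes were detected on at least 3 arrays and tested, and 94 of these were detected on every array. Between 96 and 99 member probes were detected on a single array. Only 1 tested probe, the third of 3 for Mrpl1, was undetected on all arrays of a stage, the mature osteoclasts. The 12 untested probes included 9 detected on no array. Mrpl19, Mrpl21, Mrpl32 and Mrps36 had no probe above background on any array, Mrps14 was detected on 1 array and Mrpl45 on at most 2. These are statements about the probes, since a poorly hybridizing probe and an absent transcript give the same reading.

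Most transcripts of the mitochondrial ribosome rose in the first 2 days of RANKL. Of the 98 probes tested, 74 were higher in pre-osteoclasts than in BMMs and 2 were lower, against 30.1% of all probes tested that were higher and 25.9% that were lower. The median member differed by 0.57 on the log2 scale and the median of all probes by 0.05. By gene, taking the brightest probe of each, 56 of 70 rose and 1 fell, and the median over the genes stood above the BMM mean on every one of the 6 pre-osteoclast arrays, by 0.32, 0.567 and 0.652 in ERα ΔLysM cells and by 0.472, 0.65 and 0.657 in ERα f/f cells. For 56 probes every pre-osteoclast array lay above every BMM array, and for 0 probes below (18.7% and 17.5% of all probes). As these are bulk cultures, more cells of a type and more RNA per cell cannot be told apart. Without quantile normalization, with each array only centred on its median, 34 member probes were higher and 3 lower, while calls over all probes stood at 15.5% higher and 25.6% lower, and the median difference was 0.355 for the members and -0.085 for all probes.

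**Figure D1:**
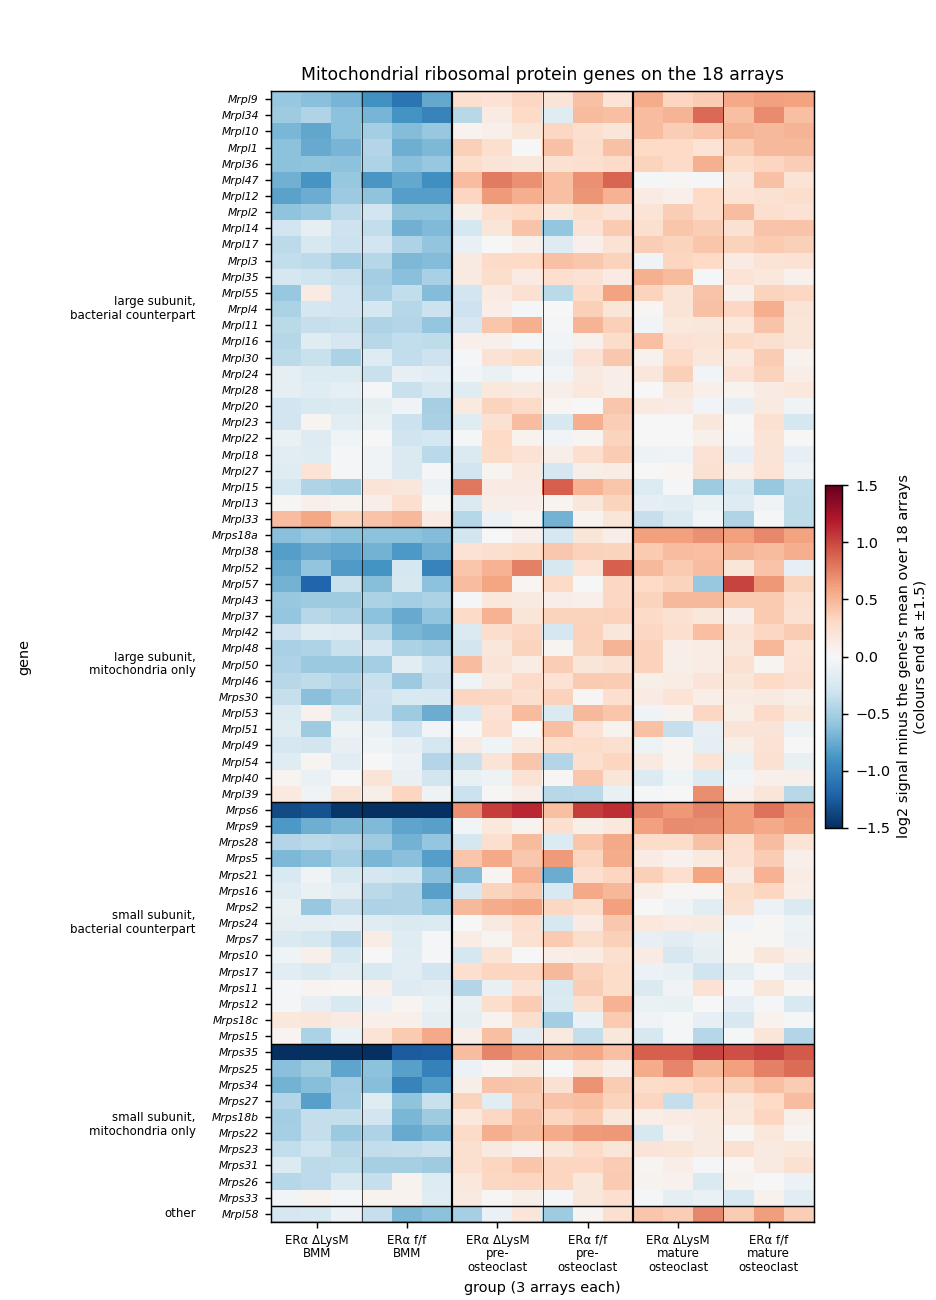
Heat map of the 70 member genes tested (rows, the brightest probe of each, grouped by subunit and bacterial counterpart) on the 18 arrays (columns, 3 per group of genotype and stage). Color is the log2 signal minus the gene's mean over the 18 arrays, from -1.5 to 1.5. Most rows are blue in the BMM columns and red in the pre-osteoclast and mature osteoclast columns of both genotypes, and the Mrpl33 row runs the other way.

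The largest rise was that of Mrps6, a small-subunit protein with a counterpart in bacterial ribosomes. Its level was 9.24, 9.57 and 9.89 (lowest, median and highest of 6 arrays) in BMMs, 11.65, 12.23 and 12.33 in pre-osteoclasts and 11.82, 11.87 and 12.01 in mature osteoclasts. No array of either RANKL stage came near the BMM arrays. The difference was 2.52 on the log2 scale in pre-osteoclasts (5.73-fold, SE 0.108, limma adjusted p = 4.05e-12) and 2.31 in mature osteoclasts (4.96-fold, adjusted p = 6.64e-12). In the RefSeq annotation (GRCm38.p6) another gene, Slc5a3, a myo-inositol transporter, overlaps Mrps6, and its own probe differed by 0.89 and 0.41 in the same comparisons. Which transcript the Mrps6 probe reads was not checked, as probe sequences were not used here.

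Mrps35, a small-subunit protein that bacterial ribosomes lack, changed in the same range but kept rising. Its level was 8.64, 8.85 and 9.17 in BMMs, 10.85, 10.96 and 11.13 in pre-osteoclasts and 11.30, 11.35 and 11.42 in mature osteoclasts, and no array of one stage overlapped another stage. The differences from BMMs were 2.08 (4.24-fold, SE 0.0916, limma adjusted p = 5.71e-12) and 2.47 (5.53-fold, adjusted p = 3.26e-13). The next largest early rises belonged to Mrpl47, Mrps5, Mrpl12 and Mrpl52. Mrpl12, part of the stalk of the large subunit that recruits translation factors, stood at 11.43, 11.48 and 11.71 in BMMs, 12.57, 12.78 and 12.92 in pre-osteoclasts and 12.33, 12.47 and 12.55 in mature osteoclasts. It rose 2.37-fold in pre-osteoclasts over BMMs (log2 difference 1.25, limma adjusted p = 8.41e-10). Mrpl47, a large-subunit protein at the exit of the peptide tunnel, rose 2.72-fold (1.45, adjusted p = 5.58e-10), Mrps5, a core small-subunit protein, 2.41-fold (1.27, adjusted p = 2.66e-08), and Mrpl52, a large-subunit protein of mitochondria only, 2.23-fold (1.16, adjusted p = 1.91e-05). The pre-osteoclast arrays lay wholly above the BMM arrays for all of these.

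Mrpl33, a small large-subunit protein with a bacterial counterpart, was the exception. Its brighter probe read 12.58, 12.91 and 13.04 in BMMs, 11.75, 12.44 and 12.64 in pre-osteoclasts and 12.01, 12.19 and 12.43 in mature osteoclasts. The pre-osteoclast arrays overlapped the BMM arrays and the mature osteoclast arrays did not. The fall was 0.56 on the log2 scale in pre-osteoclasts (1.48-fold, SE 0.144, limma adjusted p = 0.00314) and 0.65 in mature osteoclasts (1.56-fold, adjusted p = 0.000807). The second Mrpl33 probe, at 12.27, 12.51 and 12.70 in BMMs, 11.31, 12.11 and 12.43 in pre-osteoclasts and 11.79, 11.85 and 12.03 in mature osteoclasts, moved alike, with a fall of 0.54 (adjusted p = 0.0138) and 0.63 (adjusted p = 0.0041). Among pre-osteoclast arrays, array 1 of each genotype read lowest for both probes. The brighter probe read 11.75 (ERα f/f) and 12.03 (ERα ΔLysM) there, others 12.38 to 12.64. The second read 11.31 and 11.45 in the same order, others 12.04 to 12.43. These arrays also had the highest median raw intensity of their groups, at 181 and 186. The size of the early fall depends on them, and no fit left out both. In a fit of the ERα f/f arrays alone, chosen after the data were seen, the early differences of both probes no longer passed (-0.504, limma adjusted p = 0.0972, and -0.489, adjusted p = 0.132), nor did the late one of the second probe (-0.579, adjusted p = 0.063).

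**Figure D2:**
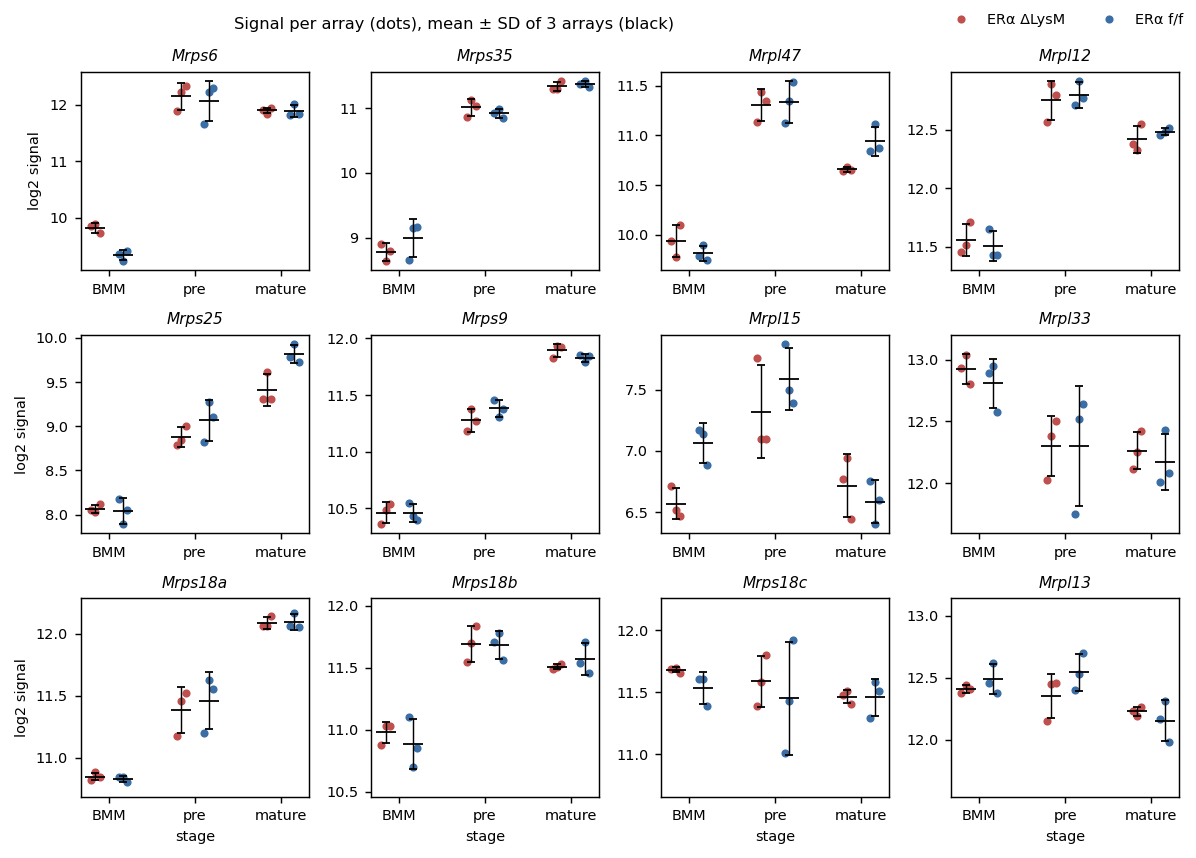
Normalized log2 signal of 12 member genes, 1 probe and 1 panel each, by stage (BMM, pre-osteoclast, mature osteoclast). Dots are single arrays, ERα ΔLysM in red and ERα f/f in blue, and black lines are the mean ± SD of 3 arrays. Mrps6 and Mrps35 lie lower in BMMs than at both RANKL stages, and Mrpl33 lies higher in BMMs than in mature osteoclasts.

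Promoter sequence was available from RefSeq (GRCm38.p6), as windows from 250 bases before to 50 bases after a start site, for 67 of the member genes in 73 windows. A set of 5 short motifs was searched on both strands. The ETS core CCGGAAG, whose reverse complement is CTTCCGG, bound by factors such as GABP that are known at promoters of mitochondrial genes, was in 26 member windows (35.6%), against 8.86% of all 32851 windows. The NRF1 core GCATGCG was in 8 (11%, against 3.58%) and the YY1 core AAGATGG in 13 (17.8%, against 6.34%), while the CCAAT box was in 39.7% (against 37.4%) and the E-box CACGTG in 9.59% (against 7.15%). The member windows were also richer in G and C, with a median of 58.7% against 52.7% over all windows, and these shares are not adjusted for it. Some genes have several windows, and the overlapping windows of Mrpl2 each hold an E-box. By gene, the ETS, NRF1 and YY1 cores were in 26, 8 and 13 of 67, the CCAAT box in 26 and the E-box in 5. Shown first are the windows of Mrps6, which rose most, and of Mrpl33, which fell; the capitals mark an ETS core on either strand, which only the Mrpl33 window holds.
Mrps6, chr16:92058086-92058385, plus strand: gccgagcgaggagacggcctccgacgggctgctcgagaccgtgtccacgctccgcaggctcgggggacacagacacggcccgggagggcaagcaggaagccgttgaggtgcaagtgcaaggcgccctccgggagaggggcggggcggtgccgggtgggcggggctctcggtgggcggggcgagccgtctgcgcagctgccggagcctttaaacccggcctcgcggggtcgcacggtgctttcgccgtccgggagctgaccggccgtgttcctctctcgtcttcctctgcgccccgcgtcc
Mrpl33, chr5:31613701-31614000, plus strand: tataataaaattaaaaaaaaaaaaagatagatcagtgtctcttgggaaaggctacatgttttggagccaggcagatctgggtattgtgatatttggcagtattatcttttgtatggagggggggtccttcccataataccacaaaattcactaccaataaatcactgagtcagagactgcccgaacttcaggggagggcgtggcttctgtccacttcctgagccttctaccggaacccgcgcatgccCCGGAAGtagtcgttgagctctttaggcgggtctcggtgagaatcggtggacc

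Over the full 4 days of RANKL most members were again higher, in a comparison that shares its BMM arrays with the previous one. Of the 98 probes, 69 were higher in mature osteoclasts than in BMMs and 3 were lower (34.8% and 33.4% of all probes tested), and the median difference was 0.59 against 0.04 for all probes. For 57 probes every mature osteoclast array lay above every BMM array and for 3 below, against 25.4% and 24.3% of all probes. By gene, 51 of 70 rose and 2 fell, Mrpl33 and Mrpl13. With arrays centred on their medians instead, 41 probes were higher and 4 lower (21.1% and 36.3% over all probes), with a median of 0.356 against -0.147 for all probes.

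After Mrps35 and Mrps6, the largest rises over the full course were those of Mrps25, Mrps9 and Mrpl9. Mrps25, a small-subunit protein of mitochondria only, read 7.89, 8.05 and 8.18 in BMMs, 8.79, 8.92 and 9.28 in pre-osteoclasts and 9.31, 9.68 and 9.93 in mature osteoclasts by one probe, a climb in 2 steps with no overlap between stages. The difference between mature osteoclasts and BMMs was 1.56 (2.95-fold, SE 0.0911, limma adjusted p = 1.29e-10), and a second probe gave 1.40 (2.64-fold, adjusted p = 2.62e-10). Mrps9, a core small-subunit protein, behaved alike, at 10.36, 10.46 and 10.55 in BMMs, 11.18, 11.34 and 11.46 in pre-osteoclasts and 11.79, 11.85 and 11.93 in mature osteoclasts. It was 2.64-fold higher in mature osteoclasts than in BMMs (1.40, SE 0.0648, limma adjusted p = 5.95e-12). Mrpl9, of the large subunit, read 9.09, 9.46 and 9.62 in BMMs, 10.38, 10.41 and 10.62 in pre-osteoclasts and 10.51, 10.75 and 10.80 in mature osteoclasts, and was 2.43-fold higher in mature osteoclasts than in BMMs (1.28, adjusted p = 1.36e-10). The fall of Mrpl13, a conserved large-subunit protein, was small. Its brighter probe read 12.38, 12.42 and 12.62 in BMMs, 12.15, 12.45 and 12.70 in pre-osteoclasts and 11.98, 12.21 and 12.31 in mature osteoclasts, a difference between mature osteoclasts and BMMs of -0.26 (1.2-fold, SE 0.0827, limma adjusted p = 0.0112), while its dimmer probe differed by 0.21 and did not pass. With arrays centred on their medians the Mrpl13 difference was -0.24 and no longer passed (adjusted p = 0.288).

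**Figure D3:**
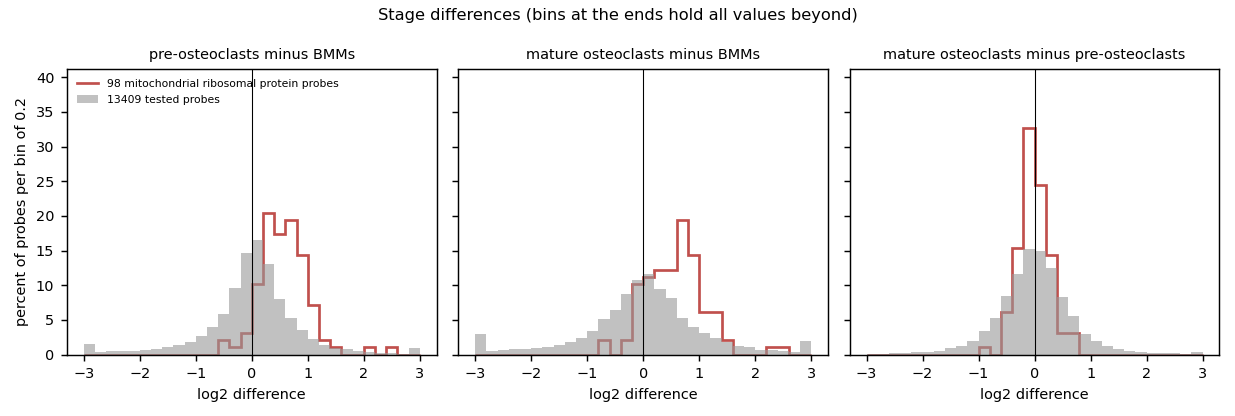
Distribution of log2 differences between stages for the 98 member probes and for all 13409 probes tested, as a percentage of probes per bin of 0.2 (end bins hold all values beyond), in 3 panels (pre-osteoclasts minus BMMs, mature osteoclasts minus BMMs, mature osteoclasts minus pre-osteoclasts). The members peak to the right of 0 in the first 2 panels, with medians of 0.57 and 0.59, and around 0 in the last, with a median of -0.03.

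Between the second and the fourth day of RANKL the members did not move as a group. In mature osteoclasts 15 probes were higher and 16 lower than in pre-osteoclasts, both shares below those of all probes (27.8% and 28.9%), and the median difference was -0.03 against 0.00 for all probes. All mature osteoclast arrays lay above all pre-osteoclast arrays for 9 probes and below for 9 (16.6% and 17.4% of all probes). The count that fell was 5 with arrays centred on their medians, where 10 probes rose, against 23% of all probes that fell and 16.7% that rose. In the ERα f/f arrays alone 6 rose and 8 fell (21.1% and 22.5% of all probes).

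Those that went on rising included Mrps18a, Mrps25, Mrps9, Mrpl58 and Mrpl34. Mrps25 rose by 0.64 and 0.60 by 2 probes (limma adjusted p = 1.59e-05 and 1.81e-05), while its remaining probe differed by 0.34 and did not pass (adjusted p = 0.0712). Mrps9 rose by 0.53 (1.45-fold, adjusted p = 3.14e-06). Mrpl58, a peptidyl-tRNA hydrolase built into the large subunit that rescues stalled ribosomes, read 8.30, 8.68 and 8.89 in BMMs, 8.45, 8.95 and 9.22 in pre-osteoclasts and 9.35, 9.38 and 9.70 in mature osteoclasts. Only the mature osteoclast arrays stood clear of the rest. Mature osteoclasts and pre-osteoclasts differed by 0.59 (1.51-fold, SE 0.137, limma adjusted p = 0.0015). The difference of 0.26 between pre-osteoclasts and BMMs did not pass (adjusted p = 0.118). Here too, array 1 of each genotype read lowest among pre-osteoclast arrays (8.45 and 8.48, others 8.88 to 9.22). The sizes of both Mrpl58 steps depend on these arrays, and no fit left out both. Mrpl34, a small large-subunit protein, rose by 0.45 (1.37-fold, adjusted p = 0.0105). In the ERα f/f arrays alone its difference was 0.293 and did not pass (adjusted p = 0.226). Its pre-osteoclast readings were also lowest on array 1 of each genotype (11.04 and 10.81, others 11.35 to 11.7).

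Among those that fell back, Mrpl15, a core protein of the large subunit, read 6.47, 6.79 and 7.17 in BMMs, 7.10, 7.45 and 7.87 in pre-osteoclasts and 6.40, 6.68 and 6.94 in mature osteoclasts. The mature osteoclast arrays lay within or just under the range of the BMM arrays and wholly below the pre-osteoclast arrays. The late fall was 0.80 on the log2 scale (1.74-fold, SE 0.131, limma adjusted p = 6.99e-05), and mature osteoclasts and BMMs differed by -0.17, which did not pass (adjusted p = 0.277). Mrps17, a core small-subunit protein, likewise read 12.27, 12.36 and 12.40 in BMMs, 12.80, 12.87 and 13.04 in pre-osteoclasts and 12.25, 12.43 and 12.53 in mature osteoclasts. Its late fall was 0.46 (1.38-fold, SE 0.0653, limma adjusted p = 1.57e-05). Mrpl47 fell by 0.52 and 0.58 by its 2 probes, Mrps2 by 0.52 (adjusted p = 0.00023) and Mrps22, a small-subunit protein of mitochondria only, by 0.49 (limma adjusted p = 9.09e-05), yet mature osteoclasts were still above BMMs and passed for all 3 genes, with Mrps22 at 10.13, 10.35 and 10.52 in BMMs, 11.17, 11.43 and 11.53 in pre-osteoclasts and 10.64, 10.93 and 11.04 in mature osteoclasts. With arrays centred on their medians the falls of Mrps22 (-0.442, adjusted p = 0.059) and Mrps17 (-0.254, adjusted p = 0.314) no longer passed, and in the ERα f/f arrays alone that of the dimmer Mrpl47 probe did not (-0.419, adjusted p = 0.197).

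Grouped by subunit and by whether bacterial ribosomes hold a counterpart, members of every class rose early. Of 27 large-subunit proteins with a bacterial counterpart 24 rose and 1 fell in pre-osteoclasts over BMMs, with a median difference of 0.47, and of 17 large-subunit proteins of mitochondria only 14 rose and 0 fell (median 0.61). Of 15 small-subunit proteins with a bacterial counterpart 9 rose and 0 fell (median 0.39), and of 10 of mitochondria only 9 rose and 0 fell (median 0.77). In mature osteoclasts over BMMs the counts were 20 up and 2 down of 27 (median 0.63), 13 up and 0 down of 17 (0.60), 8 up and 0 down of 15 (0.22) and 9 up and 0 down of 10 (0.60) in the same order of classes. Over all genes tested, 30.8% rose and 27% fell in pre-osteoclasts over BMMs, and 35% rose and 34.3% fell in mature osteoclasts over BMMs. Mrpl58 stands outside these classes. Mrps18a is counted with the large-subunit proteins of mitochondria only, although it descends from a bacterial small-subunit protein, as described below. Between mature osteoclasts and pre-osteoclasts, the large-subunit classes gave 5 up and 4 down of 27 (median 0.05) and 3 up and 0 down of 17 (-0.04). The small-subunit classes gave 1 up and 5 down of 15 (-0.08) and 2 up and 4 down of 10 (-0.13), in the same order. By name prefix, which puts Mrps18a with the Mrps genes, the Mrpl genes gave 8 up and 4 down of 43 (median 0.02). The Mrps genes gave 4 up and 9 down of 27 (median -0.10). Over all genes 28.1% rose and 30.1% fell in this step. Whether these classes differ from each other was not tested.

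The 3 Mrps18 paralogs are descendants of one bacterial small-subunit protein that occupy different sites in the mitochondrial ribosome, Mrps18a in the large subunit and Mrps18b and Mrps18c in the small one. Mrps18a rose in 2 steps, at 10.80, 10.84 and 10.88 in BMMs, 11.17, 11.49 and 11.63 in pre-osteoclasts and 12.05, 12.06 and 12.17 in mature osteoclasts, with no overlap between stages. It was higher by 0.58 in pre-osteoclasts than in BMMs (limma adjusted p = 1.25e-05), by 0.67 in mature osteoclasts than in pre-osteoclasts (1.59-fold, adjusted p = 3.72e-06) and by 1.25 over the full course (2.38-fold, adjusted p = 6.61e-10). The first of these was 0.355 and did not pass with arrays centred on their medians (adjusted p = 0.136). Rsph9, which overlaps Mrps18a in the annotation, had a probe that differed by -1.42, -0.76 and 0.65 in pre-osteoclasts over BMMs, mature osteoclasts over BMMs and mature osteoclasts over pre-osteoclasts. Mrps18b rose early and then stayed, at 10.70, 10.95 and 11.10 in BMMs, 11.55, 11.71 and 11.84 in pre-osteoclasts and 11.46, 11.52 and 11.71 in mature osteoclasts by its brighter probe. Its differences were 0.76 early (limma adjusted p = 7.17e-07) and -0.15 late (adjusted p = 0.139), and 0.63 and 0.02 by the dimmer probe, whose early difference was 0.404 and full-course difference 0.37 with arrays centred on their medians, where neither passed (limma adjusted p = 0.0907 and 0.0979). Mrps18c read 11.39, 11.64 and 11.70 in BMMs, 11.01, 11.51 and 11.92 in pre-osteoclasts and 11.29, 11.49 and 11.58 in mature osteoclasts, overlapping at all stages, and no difference passed (-0.09, -0.15 and -0.06, with the 95% interval for pre-osteoclasts minus BMMs from -0.35 to 0.17). For Mrps18c too, array 1 of each genotype read lowest among pre-osteoclast arrays (11.01 and 11.39, others 11.43 to 11.92). The promoter windows of all 3 paralogs hold an ETS core, in capitals below. Whether the courses of the 3 transcripts differ from each other was not tested, nor was any part of this motif in them.
Mrps18a, chr17:46110754-46111053, plus strand: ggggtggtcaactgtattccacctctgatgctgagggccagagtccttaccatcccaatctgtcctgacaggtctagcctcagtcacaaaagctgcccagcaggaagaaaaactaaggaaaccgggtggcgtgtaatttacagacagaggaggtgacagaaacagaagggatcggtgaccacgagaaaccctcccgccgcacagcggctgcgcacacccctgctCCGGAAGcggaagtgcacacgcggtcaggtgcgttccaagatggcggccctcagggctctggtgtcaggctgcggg
Mrps18b, chr17:35916391-35916690, minus strand: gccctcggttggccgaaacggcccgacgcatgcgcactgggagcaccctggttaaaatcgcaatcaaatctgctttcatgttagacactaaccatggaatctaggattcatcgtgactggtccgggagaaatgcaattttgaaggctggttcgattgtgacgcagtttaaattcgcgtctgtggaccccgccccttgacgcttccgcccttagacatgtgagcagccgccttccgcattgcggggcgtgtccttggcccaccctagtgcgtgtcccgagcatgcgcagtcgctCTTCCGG
Mrps18c, chr5:100798509-100798808, plus strand: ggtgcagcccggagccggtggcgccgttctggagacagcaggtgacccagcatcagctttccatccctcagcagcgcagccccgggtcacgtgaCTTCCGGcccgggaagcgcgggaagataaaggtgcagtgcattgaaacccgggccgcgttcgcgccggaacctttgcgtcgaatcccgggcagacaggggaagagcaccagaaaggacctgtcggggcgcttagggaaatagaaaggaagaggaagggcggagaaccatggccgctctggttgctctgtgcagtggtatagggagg

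A pair of members lie head to head on chromosome 7. Mrpl46, a large-subunit protein of mitochondria only, and Mrps11, a core small-subunit protein, are transcribed in opposite directions, and their promoter windows share 141 bases, shown in capitals in the Mrps11 window below. Mrpl46 read 11.09, 11.23 and 11.30 in BMMs, 11.57, 11.88 and 12.03 in pre-osteoclasts and 11.72, 11.83 and 11.93 in mature osteoclasts, and both RANKL stages lay above the BMM arrays, by 0.64 (limma adjusted p = 1.06e-06) and 0.60 (adjusted p = 1.45e-06). The brighter Mrps11 probe read 10.16, 10.37 and 10.43 in BMMs, 9.92, 10.41 and 10.72 in pre-osteoclasts and 10.14, 10.36 and 10.57 in mature osteoclasts, with the stages overlapping. Its early difference was 0.05 (95% interval -0.21 to 0.31, limma adjusted p = 0.764) and that of the second Mrps11 probe 0.03 (-0.18 to 0.23, adjusted p = 0.836). Among pre-osteoclast arrays, the brighter Mrps11 probe read lowest on array 1 of each genotype (10.13 and 9.92, others 10.25 to 10.72). Neither Mrps11 interval reaches the early difference of Mrpl46, and the difference between the genes was not tested.
Mrps11, chr7:78782881-78783180, plus strand: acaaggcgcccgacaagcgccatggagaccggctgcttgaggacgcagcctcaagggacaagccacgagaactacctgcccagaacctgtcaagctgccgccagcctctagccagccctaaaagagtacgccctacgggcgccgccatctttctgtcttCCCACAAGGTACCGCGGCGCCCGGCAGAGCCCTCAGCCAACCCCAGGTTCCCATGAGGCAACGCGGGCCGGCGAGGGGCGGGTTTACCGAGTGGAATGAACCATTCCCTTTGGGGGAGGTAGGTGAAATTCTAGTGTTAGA

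For 21 member genes more than 1 probe was tested, which gives a second reading of the same transcript or of an isoform. All probes of a gene had the same sign for 20 genes in pre-osteoclasts over BMMs, 17 in mature osteoclasts over BMMs and 14 in mature osteoclasts over pre-osteoclasts. No gene had probes that passed in opposite directions in these comparisons. All probes passed the same way for 13, 12 and 5 genes.

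Other genes of mitochondrial gene expression, listed by function, moved with the ribosomal proteins in the first step. Of 13 translation factors 11 rose and 0 fell in pre-osteoclasts over BMMs (median 0.70), against 30.8% up and 27% down over all 9088 genes tested. Lrpprc, which stabilizes mitochondrial messages, read 7.936, 8.208 and 8.373 in BMMs, 9.253, 9.465 and 9.676 in pre-osteoclasts and 9.017, 9.226 and 9.536 in mature osteoclasts, and rose by 1.28 early (limma adjusted p = 3.66e-09). The elongation factors Tufm and Gfm1 rose by 1.19 (adjusted p = 1e-10) and 1.16 (adjusted p = 5.29e-10). Taco1, an activator of cytochrome oxidase subunit translation, went on rising and was 1.74 higher in mature osteoclasts than in BMMs (adjusted p = 3.3e-09), while Mtrf1l, a release factor, was 0.33 lower there (log2 difference -0.33, adjusted p = 0.0185), the single translation factor to fall among 9 that rose.

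Of 10 genes of mitochondrial transcription and DNA maintenance 9 rose and 0 fell in pre-osteoclasts over BMMs (median 0.81), led by the helicase Twnk (1.21, limma adjusted p = 1.82e-07) and Mterf2 (1.07, adjusted p = 0.000248). In mature osteoclasts over BMMs 9 rose and 1 fell, and the one that fell, Polg, the catalytic subunit of the mitochondrial DNA polymerase, read 7.152, 7.423 and 7.683 in BMMs, 6.756, 7.222 and 7.51 in pre-osteoclasts and 6.093, 6.786 and 7.06 in mature osteoclasts. Its difference was -0.71 between mature osteoclasts and BMMs (adjusted p = 0.000289). Of 19 factors that build the mitochondrial ribosome, 12 rose and 2 fell early, and 8 rose and 6 fell over the full course (35% and 34.3% of all genes). Differences between these lists were not tested. The rRNA methyltransferases Mrm3 and Mrm1 illustrate both courses. Mrm3 rose by 1.08 early (limma adjusted p = 2.1e-06) and fell by 0.82 late (adjusted p = 5.81e-05). Mrm1 rose by 0.42 early and 1.01 late (adjusted p = 5.48e-09). Early falls were seen for Ddx28, a helicase of large-subunit assembly (-0.26, adjusted p = 0.021), and Rbfa, which acts on the small subunit (-0.24, adjusted p = 0.00254). Over the full course, Trub2, a pseudouridine synthase, and Ybey, an RNA processing factor, were lower in mature osteoclasts than in BMMs, with differences of -0.61 and -0.47 (limma adjusted p = 5.68e-06 and 0.00961). Of 4 mitochondrial ribosome proteins that carry other names (Chchd1, Dap3, Gadd45gip1 and Ptcd3), 3 rose and 0 fell early. Ptcd3 rose by 1.10 (adjusted p = 2.69e-08), and Dap3, a small-subunit protein that binds GTP, by 0.32 (adjusted p = 0.00134).

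The course of the mitochondrial ribosome was set beside those of the cytosolic ribosome and of respiratory complex I. Of 56 cytosolic ribosomal protein genes 28 rose and 0 fell in pre-osteoclasts over BMMs (median 0.24), 11 rose and 6 fell in mature osteoclasts over BMMs (median 0.04), and 1 rose and 27 fell in mature osteoclasts over pre-osteoclasts (median -0.21). Of 32 complex I subunit genes 26, 32 and 25 rose in these comparisons and 0 fell (medians 0.64, 1.06 and 0.42). The member genes gave 56, 51 and 12 up and 1, 2 and 13 down of 70. Over all genes tested, 30.8% rose and 27% fell, 35% rose and 34.3% fell, and 28.1% rose and 30.1% fell in these comparisons. On single arrays, the median over the genes of a set relative to the BMM mean was 0.527, 0.55 and 0.57 in ERα ΔLysM and 0.599, 0.71 and 0.532 in ERα f/f mature osteoclasts for the member genes. It was between 0.91 and 1.16 for complex I and between -0.0265 and 0.0864 for the cytosolic ribosome on the same arrays, so the ranges of the 3 sets did not overlap at 4 days. On pre-osteoclast arrays the cytosolic ribosome spanned 0.105 to 0.393 and the member genes 0.32 to 0.657, and complex I, at 0.333 to 0.809, overlapped both. In all 3 sets array 1 of each genotype read lowest at this stage. On the other pre-osteoclast arrays the ranges were 0.285 to 0.393, 0.567 to 0.657 and 0.692 to 0.809 in the same order, without overlap. The differences between the sets were not tested.

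**Figure D4:**
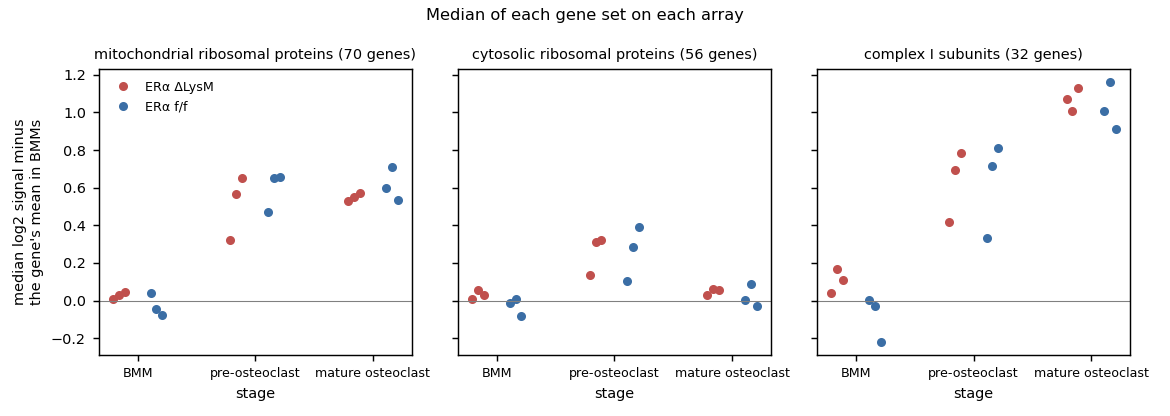
Median over genes of the log2 difference from the BMM mean, on each of the 18 arrays, for the 70 member genes, 56 cytosolic ribosomal protein genes and 32 complex I subunit genes; points are single arrays, by stage and genotype. The sets start together near 0 in BMMs, and in mature osteoclasts complex I lies highest, the member genes between and the cytosolic ribosome near 0.

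The rise was seen in each genotype taken alone. In pre-osteoclasts over BMMs, 58 member probes rose and 1 fell in ERα ΔLysM cells (median 0.50; 24.8% and 21.9% of all probes), and 68 rose and 0 fell in ERα f/f cells (median 0.63; 24% and 21.7% of all probes). In mature osteoclasts over BMMs, 57 rose and 2 fell in ERα ΔLysM cells (median 0.53, with 29.1% and 28.6% of all probes), and 65 rose and 3 fell in ERα f/f cells (median 0.67, with 30.3% and 28.9% of all probes). Whether a probe's genotype difference varied among the stages was tested directly with limma's moderated F test, which 0 member probes and 0.082% of all probes passed (3 members and 1208 of all probes had an unadjusted p under 0.05). The smallest adjusted p of a member was that of an Mrps31 probe (limma F = 6.87, adjusted p = 0.418). Mrps31 is a small-subunit protein of mitochondria only.

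Deletion of ERα with LysM-Cre moved no member past the threshold of limma at any stage in the quantile-normalized values. In BMMs 0 of 98 member probes passed, where 0.321% of all probes did (43 probes). An unadjusted p under 0.05 was reached by 8 members and by 1797 of all 13409 probes. The median difference between ERα ΔLysM and ERα f/f BMMs was 0.07 against -0.00 for all probes. Above 0 were 62 of the 98 members and 6640 of all 13409 probes. The highest differences were those of Mrps6, Mrpl53 and Mrps16. Mrps6 read 9.85, 9.89 and 9.73 in ERα ΔLysM and 9.37, 9.24 and 9.42 in ERα f/f BMMs, without overlap (difference 0.48, SE 0.153, limma adjusted p = 0.188). Mrpl53, a large-subunit protein of mitochondria only, read 11.06, 11.33 and 11.04 in ERα ΔLysM and 10.94, 10.73 and 10.52 in ERα f/f BMMs (0.41, adjusted p = 0.378), and Mrps16, a core small-subunit protein, differed by 0.41 (adjusted p = 0.38). The lowest were a probe of Mrpl51, also of mitochondria only (-0.60, limma adjusted p = 0.433), Mrps15 and Mrpl15. Mrps15, a small-subunit protein with a bacterial counterpart, read 9.0, 8.48 and 8.85 in ERα ΔLysM and 9.16, 9.35 and 9.52 in ERα f/f BMMs (-0.56, adjusted p = 0.24). Mrpl15 read 6.71, 6.52 and 6.47 in ERα ΔLysM and 7.17, 7.14 and 6.88 in ERα f/f BMMs (-0.50, adjusted p = 0.255). All arrays of one genotype lay clear of the other for 22 member probes upward and 6 downward (11.5% and 12.1% of all probes).

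The BMM comparison depended on how arrays were scaled. With arrays centred on their medians, the median difference between ERα ΔLysM and ERα f/f BMMs was -0.505 for the members and -0.427 for all probes, and 5.86% of all probes passed, nearly all of them lower (5.79%). Under that scaling 3 members were lower, Mrps15 (-1.06, limma adjusted p = 0.0231), Mrpl15 (-0.89, adjusted p = 0.048) and Mrps7 (-0.865, adjusted p = 0.0455), and Mrps6 (-0.0713), Mrpl53 (-0.214) and Mrps16 (-0.19) changed sign.

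In pre-osteoclasts 0 member probes passed (0.0746% of all probes), and 2 had an unadjusted p under 0.05 (1093 of all 13409 probes). The median difference between ERα ΔLysM and ERα f/f cells was -0.07 against -0.01 for all probes. Above 0 were 27 of 98 members and 6485 of all 13409 probes. The extremes were single probes of Mrpl13 (8.26, 9.16 and 8.60 in ERα ΔLysM and 8.12, 7.60 and 8.88 in ERα f/f cells, 0.47, limma adjusted p = 0.737) and of Mrpl49, a large-subunit protein of mitochondria only (6.94, 7.26 and 7.74 in ERα ΔLysM and 7.53, 7.92 and 7.75 in ERα f/f cells, -0.42, adjusted p = 0.624). The arrays of the genotypes overlapped for both. Next came probes of Mrpl51 (0.41) and Mrpl18, a core large-subunit protein (0.35), and on the low side a second Mrpl49 probe (-0.34) and another of Mrpl51 (-0.29).

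In mature osteoclasts 0 member probes passed (0.172% of all probes), and 5 had an unadjusted p under 0.05 (943 of all 13409 probes). The median was -0.03 against -0.01 for all probes. Above 0 were 37 of 98 members and 6497 of all 13409 probes. Mrpl57, a large-subunit protein of mitochondria only, was lowest, at 6.67, 6.71 and 5.80 in ERα ΔLysM and 7.39, 7.02 and 6.71 in ERα f/f cells (-0.65, limma adjusted p = 0.631), followed by a probe of Mrpl51 (-0.50) and one of Mrps25. That Mrps25 probe read 9.31, 9.62 and 9.31 in ERα ΔLysM and 9.79, 9.93 and 9.73 in ERα f/f cells, without overlap (-0.41, adjusted p = 0.408). On the high side stood another Mrpl51 probe (0.32), Mrpl39, a large-subunit protein of mitochondria only (0.28), and Mrpl52 (0.28). Of the 3 Mrpl51 probes, the same 2 gave opposite signs in pre-osteoclasts and mature osteoclasts, so no direction can be given for that gene. All 3 arrays of ERα ΔLysM lay below all ERα f/f arrays for 16 member probes here and for 9 in pre-osteoclasts, and above for 1 and 0 (below, 7.61% and 5.49% of all probes; above, 6.6% and 4.76%).

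**Figure D5:**
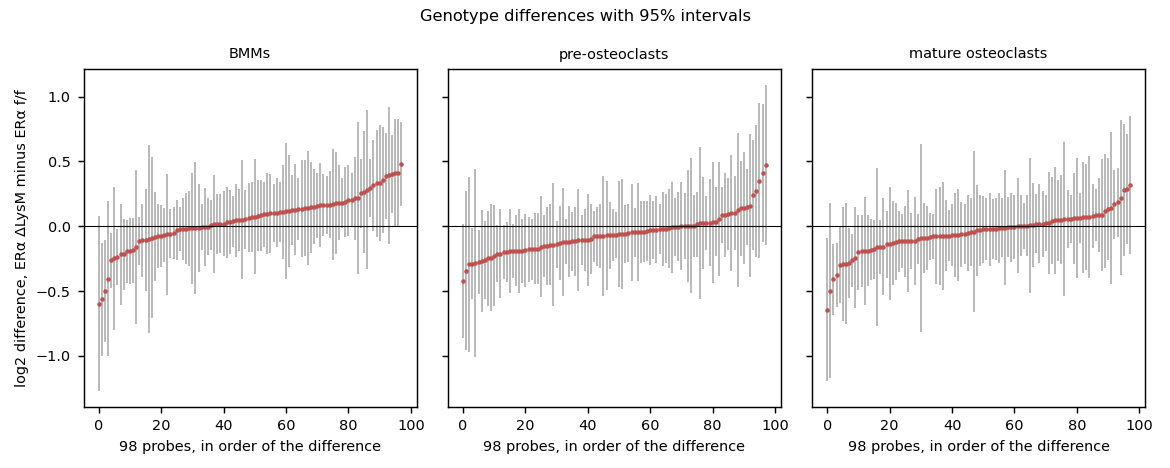
Log2 difference between ERα ΔLysM and ERα f/f cells for the 98 member probes with 95% confidence intervals, in order of the difference within each panel, in BMMs, pre-osteoclasts and mature osteoclasts. The medians are 0.07, -0.07 and -0.03, and 0 probes passed at any stage.

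The precision of these genotype comparisons was set by 3 arrays a group. The 95% interval of a member's difference had a median half-width of 0.285 on the log2 scale (0.172 to 0.726), and 96 of 98 intervals lay within a difference of 1 in either direction in each stage. Complex I had a median difference of 0.23 between ERα ΔLysM and ERα f/f BMMs, with 28 of 32 genes above 0. Of these genes 0 passed and 7 had an unadjusted p under 0.05. Over all 9088 genes the median was -0.00, with 4543 above 0. Of all genes 0.099% passed as higher and 0.198% as lower, and 1251 had an unadjusted p under 0.05. The complex I values come from the quantile-normalized data only.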

How the data were processed

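RNA of cultured cells was hybridized to 18 Illumina MouseRef-8 bead arrays. The deposited table of the authors held raw intensity and a detection p-value per probe and array, and a second deposited table held normalized log2 values of the same arrays, per the study's methods processed with lumi (version and settings not given in the sources used here). The intensities were used here: normexp background correction with controls inferred from the detection p-values, quantile normalization and log2 after an offset of 16 (neqc, limma 3.58.1, R 4.3.3). The results differed from the deposited log2 values by at most 0.0281 (0.00669 for member probes). The test took in probes with a detection p below 0.05 on 3 or more arrays, and 832 of 26529 rows without an annotated probe (3.14%) were left out.

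One cell-means model over the 6 groups was fitted with lmFit and eBayes, and 6 contrasts and a moderated F test were adjusted by Benjamini-Hochberg over 13409 probes at 0.05. Stage contrasts average the genotypes. A gene is represented by its brightest tested probe. Fold changes are powers of 2 of these differences, and the offset makes them understate changes of dim probes. Confidence intervals are at 95%. Array intensities are relative, so no probe's level was compared with another's, and the brightest and dimmest members were not listed. The number of arrays limits the precision.

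The members, gene lists and tests were chosen with earlier results of these data known. Named genes were the 6 largest differences that passed in each direction of a stage contrast, the 3 highest and 3 lowest differences of a genotype contrast, genes without a detected probe, the Mrps18 paralogs, and up to 2 genes per other list and direction; Mrpl46 and Mrps11, other lists' further genes and Mrps7 were chosen after their values were seen. Alternatives were the deposited log2 values, no background correction, centring on array medians, no filter or a stricter filter, brightness as a covariate, array weights, a trended robust prior, only the compared stages, replicate blocks, a threshold of 0.01, other choices of a gene's probe, leaving out each array and, chosen after seeing the data, only ERα f/f arrays. Probe annotation was that of the array's second version, while the study's methods name the first; all 110 member probes matched RefSeq (GRCm38.p6) by symbol. The model was tested on simulated data. Figures and motif counts used Python 3.11.15, pandas 2.3.3 and matplotlib 3.10.9.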

Additional observations from a re-analysis of the deposited data

Results flagged for a closer look

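Of 108 sets of 6 arrays of one stage checked (35 named probes and the median over the members, at 3 stages each), 5 held an array whose gap to its nearest neighbor, as a share of the range, was above Dixon's 95% critical value. Chance gives about 1 in 20. A probe of Mrpl13 read 12.62 on ERα f/f BMM array 2, with the other BMM arrays at 12.38 to 12.46. Mrps22 read 10.64 on ERα ΔLysM mature osteoclast array 1 (others 10.9 to 11.04). A probe of Mrpl51 read 7.767 on ERα ΔLysM pre-osteoclast array 2 (others 6.496 to 6.873). The brighter Mrps18b probe read 11.71 on ERα f/f mature osteoclast array 2 (others 11.46 to 11.54). Mrps18c read 11.39 on ERα f/f BMM array 3 (others 11.61 to 11.7). No array appears more than once in this list. The check pools the genotypes, so arrays that deviate together can go unflagged. Pre-osteoclast array 1 of each genotype did so for a probe of Mrpl33 (11.31 and 11.45, others 12.04 to 12.43).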

How the results depend on the processing

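Over 58 named results, 1780 values under alternatives were computed. Of these, 1754 kept their direction and side of the threshold, 14 lost the call, 2 gained one and 10 changed sign, and the sign changes were all of differences that had not passed. Leaving out single arrays gave 1040 of the 1754 unchanged values. The deposited log2 values, which hardly differ from those used here, gave 58. The scaling mattered most, and 45 of the 58 named values were unchanged with arrays centred on their medians. With arrays centred on their medians, the counts of higher member probes were 34 (pre-osteoclasts over BMMs) and 41 (mature osteoclasts over BMMs), the medians were 0.355 and 0.356, and 5 probes were lower in mature osteoclasts than in pre-osteoclasts. The genotype medians were -0.505, -0.348 and -0.238 in BMMs, pre-osteoclasts and mature osteoclasts, with 3 members passing in BMMs, and the medians of all probes -0.427, -0.202 and -0.135. Under it, higher calls made up 37.6%, 36.8% and 42.1% of all calls in the stage comparisons in the order above, against 53.7%, 51% and 49% with quantile normalization. In the genotype comparisons they made up 1.15%, 50% and 50%, against 30.2%, 70% and 47.8%. Values that changed sign there were, between mature osteoclasts and pre-osteoclasts, a Mrps18b probe (-0.034) and Mrps18c (0.0345), and, between ERα ΔLysM and ERα f/f BMMs, Mrps6 (-0.0713), Mrpl53 (-0.214) and Mrps16 (-0.19). Without background correction the median of mature osteoclasts over BMMs was 0.478. At an adjusted p under 0.01, 1 probe was lower in pre-osteoclasts than in BMMs and 9 were higher in mature osteoclasts than in pre-osteoclasts. In the ERα f/f arrays alone, chosen after seeing the data, 0 probes were lower in pre-osteoclasts than in BMMs (69 higher), and 6 were higher and 8 lower in mature osteoclasts than in pre-osteoclasts, where Mrps18c changed sign (0.00649). With the mean of a gene's probes, 1 gene was lower in mature osteoclasts than in BMMs, against 2. The cause of these changes was not tested.

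Leaving out each array in turn, higher and lower counts ranged from 69 to 77 and 2 to 3 in pre-osteoclasts over BMMs (median 0.53 to 0.615), 67 to 70 and 3 to 3 in mature osteoclasts over BMMs (0.562 to 0.602) and 13 to 17 and 12 to 18 in mature osteoclasts over pre-osteoclasts (-0.0832 to 0.0075). The genotype and F test counts stayed at 0, and the genotype medians of BMMs lay at 0.0257 to 0.116, those of pre-osteoclasts at -0.138 to 0.00897 and those of mature osteoclasts at -0.0771 to -0.00288. Mrps18c changed sign without ERα f/f pre-osteoclast array 1 (pre-osteoclasts over BMMs, 0.0217, range -0.204 to 0.0217) or 3 (mature osteoclasts over pre-osteoclasts, 0.055, range -0.171 to 0.055). A Mrps18b probe did so between mature osteoclasts and pre-osteoclasts without ERα f/f pre-osteoclast array 3 (-0.00137) or ERα ΔLysM pre-osteoclast array 1 (-0.0149), in a range of -0.0149 to 0.0598. The replicate numbers showed no general pairing of the arrays: only 2 of 27 same-numbered pairs had deviations correlated above 0.1 (range -0.234 to 0.355). The highest, 0.355, was that of pre-osteoclast array 1 of both genotypes. Whether those arrays share a batch was not tested, and a count over all pairs cannot show it. They were left out singly and never both, so leaving out single arrays cannot show what rests on the pair. With the replicate number as a block, across or within genotypes, 73 probes were higher and 2 lower in pre-osteoclasts over BMMs (median 0.575), 69 and 3 in mature osteoclasts over BMMs (0.593) and 15 and 16 in mature osteoclasts over pre-osteoclasts (-0.0332), and 0 members passed in any genotype comparison (0.0692, -0.0665 and -0.0318) or the F test. The stricter filter kept 97 member probes and no filter 110.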
